A study of Mus musculus with 21 samples.

Results

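The comparison described here sets WT Hepa1-6 tumours given anti-PD1 plus anti-CTLA4, called the combination below, against WT tumours given isotype antibody, over all genes. It uses 10 of the 21 libraries of the series, 5 per arm, chosen by their sample titles. Hepa1-6 is a mouse hepatoma cell line grown as tumours in C57BL/6 mice, and bulk messenger RNA of frozen tumour tissue was sequenced. WT is the arm in which B cells were not depleted. The other 11 libraries, 6 isotype and 5 combination, came from B-depleted mice; they entered the model as further groups and are used as a comparison near the end. The labels do not say how B cells were depleted, how many doses were given, when tumours were taken, or whether libraries come from separate animals, so the p-values measure the spread between these samples.

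PD-1 and CTLA-4 are brakes on T cells: CTLA-4 competes for the costimulatory signal when a T cell is first activated, and PD-1 damps signalling of the T-cell receptor at the tumour when its ligand PD-L1 is displayed. Antibodies that block them release T cells that can secrete interferon gamma and kill tumour cells through granules of perforin and granzymes. Interferon gamma acts through the JAK kinases, whose signal switches on the machinery that displays peptides to T cells, chemokines that draw in further T cells, and PD-L1 itself.

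Total counts ran from 15.03 to 18.13 M per WT library. Levels below are CPM, a gene's count scaled to the library's total and not corrected for gene length. Fold changes are log2 values from edgeR's quasi-likelihood model, combination minus isotype, with the standard error as SE. A gene is called when its Benjamini-Hochberg adjusted p over the 19061 genes tested is under 0.05. Of these genes 9529 (50.0%) were called, 4766 (25.0%) higher and 4763 (25.0%) lower, and the median fold change over all genes was 0.00. A change of at least 2-fold was reached by 2263 of the higher and 1127 of the lower genes. With this much of the transcriptome called, a list with about 25.0% of its members called in 1 direction stands at the background. All 5 combination libraries were above all 5 isotype libraries for 2862 genes (15.0%) and below them for 2730 genes (14.3%).

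Libraries differed both between and within the arms. The first principal component of the WT libraries held 63.1% of the variance and separated the arms; isotype replicates 1 and 2 stood apart from the other isotype libraries on the second component (13.3%), and combination replicate 3 lay nearest to the isotype libraries on the first. The summed level of 4 Y-linked genes, read only in cells with a Y chromosome, was 47.6 to 79.2 CPM in isotype and 135 to 250 CPM in combination libraries, and all 4 rose (median log2 1.51). Xist, the RNA that coats the inactive X chromosome, moved the other way. It was at 2823, 3296, 2918, 2886 and 3057 CPM in isotype replicates 1 to 5 and at 2285, 1514, 2194, 968 and 723 CPM in the combination replicates (log2 -0.95, SE 0.26, edgeR adjusted p = 0.00638); it was singled out after its values were seen. Xist and the Y-linked sum thus did not overlap between the arms, and both were most shifted in combination replicates 4 and 5. The labels used here state neither the sex of the hosts nor the share of tumour cells in a sample, so the treatment and a different mix of host and tumour cells cannot be told apart for any fold change given here. In bulk tissue, fewer cells of a type and less RNA per cell cannot be told apart, and the same holds for a rise in one and a fall in another.

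With the summed CPM of the Y-linked genes, on the log2 scale, as a covariate, 77 genes were called instead of 9529, 43 of them among the 9529. The covariate itself separates the arms, so the treatment and this shift cannot be told apart in such a fit. The calls of Gzmb, Klrc1, Nos2, Atp6v0d2, Il11, Hmgcs1, Fads2 and Hopx remained in it, 8 of the 163 called genes named in the text. The median of the list was still above 0 for T-cell receptor genes (0.83), killing genes (0.91), guanylate-binding proteins (0.71) and macrophage effectors (0.87), and fell below 0 for collagens (-0.72), fibroblast genes (-1.14) and endothelial genes (-0.81).

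**Figure D1:**
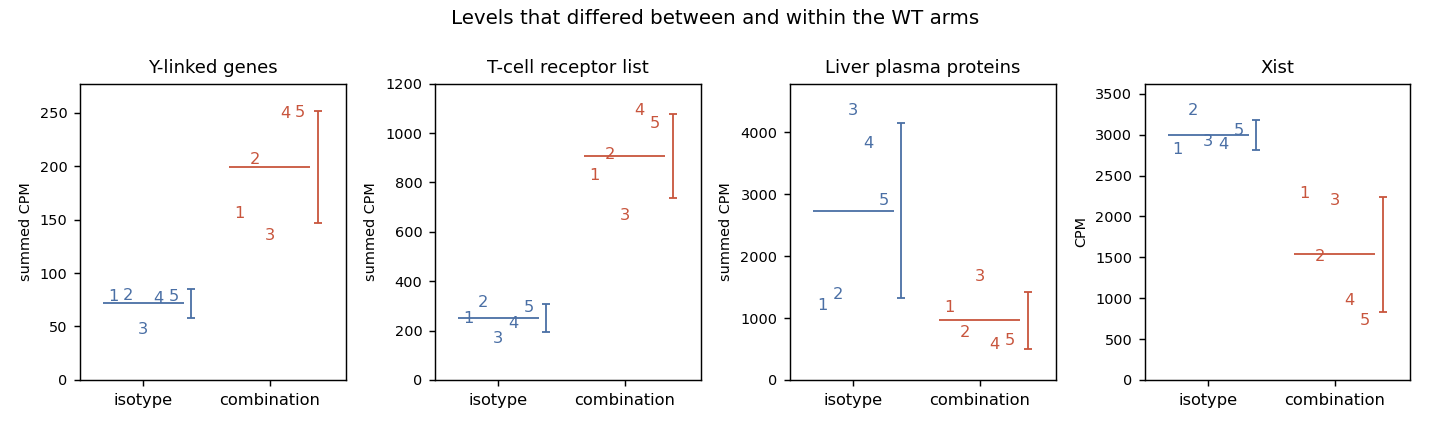
Summed CPM of 4 Y-linked genes, of the T-cell receptor list and of liver plasma protein genes, and CPM of Xist, in each WT library. Digits are replicate numbers, horizontal lines are arm means and bars at the right are the SD (n = 5); the Y-linked sum and Xist do not overlap between arms, and isotype replicates 1 and 2 lie apart from 3 to 5 only in the liver panel.

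Short promoter stretches are shown for 2 groups of genes whose members moved together in these tumours: interferon-induced GTPases that rose and mitotic genes that fell. RefSeq promoter windows (250 bases before to 50 after a gene's start, GRCm38.p6) could be matched by symbol for 11839 of the tested genes, and 7 motifs were searched on both strands, 6 of which are reported. The interferon-stimulated response element, spelled GAAANNGAAA, is a site read by IRF factors. It occurred in 9 of the 10 matched guanylate-binding protein and immunity-related GTPase genes, in 11 of 17 type I interferon-stimulated genes and in 3.92% of all matched genes. The following stretches overlap no annotated exon, read 5′ to 3′ on the strand of the gene, with the match in capitals (TTTCNNTTTC where it lies on the other strand). Those of Gbp5 and Irgm2 lie before the RefSeq start used for the window but inside the GENCODE span of the gene, whose first annotated start is further upstream.
Gbp5 (chr3:142496744-142496803, + strand): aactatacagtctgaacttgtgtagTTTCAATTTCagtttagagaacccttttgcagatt
Igtp (chr11:58199497-58199555, + strand): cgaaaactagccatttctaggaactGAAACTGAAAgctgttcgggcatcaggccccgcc
Irgm2 (chr11:58214888-58214947, + strand): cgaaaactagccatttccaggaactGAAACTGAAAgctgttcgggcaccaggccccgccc
Tgtp2 (chr11:49064248-49064307, - strand): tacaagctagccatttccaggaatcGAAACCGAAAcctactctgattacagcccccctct
The interferon gamma activation site, spelled TTCNNNGAA, occurred in 6 of those 10 GTPase genes, in 6 of 15 genes of the interferon signalling chain and in 8.52% of all matched genes.

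For genes that fell, the letters CAAAGT, a core of the site of the liver factor HNF4, occurred in 6 of 14 matched plasma protein genes against 14.7% of all. These letters are not particular to genes that fell: they occurred in 5 of 9 non-classical class I genes and 4 of 9 general macrophage genes, and in 14.1% of genes called lower against 15.8% of those called higher. CCAAT, the box bound by NF-Y in many cell cycle promoters, occurred in 15 of 16 matched mitotic genes against 42.5%. It is not particular to genes that fell either. It occurred in 8 of 9 class I heavy chain and peptide-loading genes and 8 of 10 class II genes, lists that rose. Of genes called lower 42.1% had it, against 41.3% of those called higher. CTTTGAT, a TCF site, was found in 1 of 7 Wnt target genes (3.27% of all), and TCACNCCAC, a sterol element, in 1 of 13 cholesterol genes (1.41%). A match is a description of these letters only. The stretches shown are those of the most changed members with a match, again overlapping no exon.
Cdk1 (chr10:69352939-69352985, - strand): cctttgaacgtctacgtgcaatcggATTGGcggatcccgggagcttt
Aurka (chr2:172370571-172370614, - strand): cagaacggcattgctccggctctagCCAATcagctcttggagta
Bub1 (chr2:127831872-127831926, - strand): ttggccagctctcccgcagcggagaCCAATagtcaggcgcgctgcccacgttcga

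T-cell genes were higher in the combination arm. All 20 members of the list of the T-cell receptor and its proximal signalling were called higher (median log2 1.96, range 1.44 to 2.31), against 25.0% of all genes. Cd8a, the coreceptor of killer T cells (chr6:71373427-71379173), was at 22.3, 25.6, 18.6, 27.2 and 37.2 CPM in isotype replicates 1 to 5 and at 107, 97.3, 75.5, 126 and 107 CPM in the combination (log2 1.99, SE 0.25, edgeR adjusted p = 3.82e-05). The arms did not overlap, and the lowest combination library, replicate 3, was well above the highest isotype library. Cd3e, a signalling chain of the receptor, rose by 1.91 and Zap70, the kinase it recruits, by 1.57; both rose in every combination library over every isotype library. Cd4, the coreceptor of helper T cells, rose by 2.26, Themis by 2.27 and the adaptor Sh2d1a by 2.31.

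Of 18 cytotoxic granule and killing genes, 17 were called higher and 1 was not called (median 1.84). Gzmb, the granzyme that triggers apoptosis (chr14:56258838-56262260), was at 8.06, 14.3, 9.23, 10.3 and 16.1 CPM in isotype libraries. In the combination it reached 75.4, 46.1, 36.8, 46.5 and 55.1 CPM (log2 2.18, SE 0.24, edgeR adjusted p = 1.81e-05), with no overlap. Nkg7, a granule membrane protein, rose from 16.8 ± 4.24 to 76.1 ± 15.0 CPM (SD, n = 5 each; log2 2.2, adjusted p = 2.36e-05), and Gzmk by 2.47. Gzmd rose by 2.59 from levels of 0.399 to 2.48 CPM, and its highest isotype library overlapped the lowest combination library. Over the 10 libraries the genes whose levels followed Gzmb most closely by rank were Sytl3 (Spearman's rho 0.988), Ccl3 (0.976), Ssu72 (0.976), Atp1b3 (0.964) and Gm5970 (0.964); the difference between the arms is in each of these values.

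Transcription factors of effector T cells rose less uniformly: 12 of 17 were higher, 1 lower and 4 not called (median 1.25). Eomes and Tbx21, which drive the killer programme, rose by 2.01 and 1.94, and Batf by 1.73. Tox, a factor of exhausted T cells, was at 15, 20.7, 56.1, 63.9 and 48.3 CPM in isotype and at 33.2 to 50.6 CPM in combination libraries (log2 0.08, adjusted p = 0.831). Isotype replicates 1 and 2 were below and 3 to 5 within or above the combination range. Cd3e did not have this split, with 25.1 and 36.3 CPM in isotype replicates 1 and 2 and 18.3 CPM in 3. The isotype mean of Tox, 40.8 CPM, was above that of Cd3e, 27.9 CPM. Which cells carry the Tox RNA was not tested, so its level is not a measure of T-cell exhaustion. Bhlhe40, which many cell types express, was at 396 to 481 CPM and fell by 0.45 on the log2 scale (adjusted p = 0.0142), a call lost without combination replicate 5 (-0.35).

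The list of naive and memory genes split. Of 12 members 7 rose, among them Il7r, the interleukin 7 receptor (1.97), Slamf6 (1.86) and Cxcr5 (2.12). Tcf7, which encodes the stem-like T-cell factor TCF-1 and is also a Wnt target, was the 1 member that fell. It was at 114 to 132 CPM in isotype libraries and at 33.6 to 72.7 CPM in combination libraries (log2 -1.17, SE 0.2, adjusted p = 0.000246). The T-cell gene Cd3e was lower in the isotype libraries, at 18.3 to 36.3 CPM. Which cells carry the Tcf7 RNA was not tested, so its fall is not a measure of stem-like T cells.

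Inhibitory and costimulatory receptors of T cells rose in 14 of 16 cases (median 1.49), and the other 2 were not called. Pdcd1, which encodes PD-1 itself, was at 7.95, 9.45, 8.41, 10.8 and 15.3 CPM in isotype and at 32.6, 34.5, 32.8, 39.8 and 36.1 CPM in combination libraries (log2 1.78, SE 0.25, adjusted p = 6.09e-05). Ctla4 rose less, by 1.19, from 6.53 to 11.2 CPM up to 13.9 to 24.7 CPM. The costimulatory receptors Cd226, Cd27 and Icos rose by 2.23, 2.2 and 2.1. Of 6 regulatory T-cell genes 4 rose (median 1.01), among them Il2ra (1.27) and Tnfrsf8 (1.77). Foxp3, the factor that defines these cells, overlapped between the arms at 2.35 to 9.45 and 6.07 to 14.5 CPM (log2 0.9, adjusted p = 0.135).

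Natural killer receptors rose in 8 of 14 cases (median 1.52), and 6 were not called; without isotype replicates 1 and 2, 12 of the 14 rose. Those that activated T cells also carry rose: Klrc1 by 2.09 (adjusted p = 1.33e-05), Klrc2 by 2.26 and Cd7 by 2.66. Klre1, a lectin-like receptor of natural killer cells, was at 1.29 to 2.65 CPM in isotype and 4.5 to 9.02 CPM in combination libraries, without overlap (log2 1.81, SE 0.29, adjusted p = 0.000136). Ncr1, a receptor that defines natural killer cells, was at 0.176 to 4.66 CPM in isotype and 1.91 to 6.64 CPM in combination libraries (log2 1.24, adjusted p = 0.122), a gene that is called without isotype replicates 1 and 2 (2.74). Klrb1c was called at 1.48 (adjusted p = 0.04), with overlapping arms, and lost the call when any of 6 single libraries (isotype 3, 4 or 5, combination 2, 4 or 5) was left out.

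**Figure D2:**
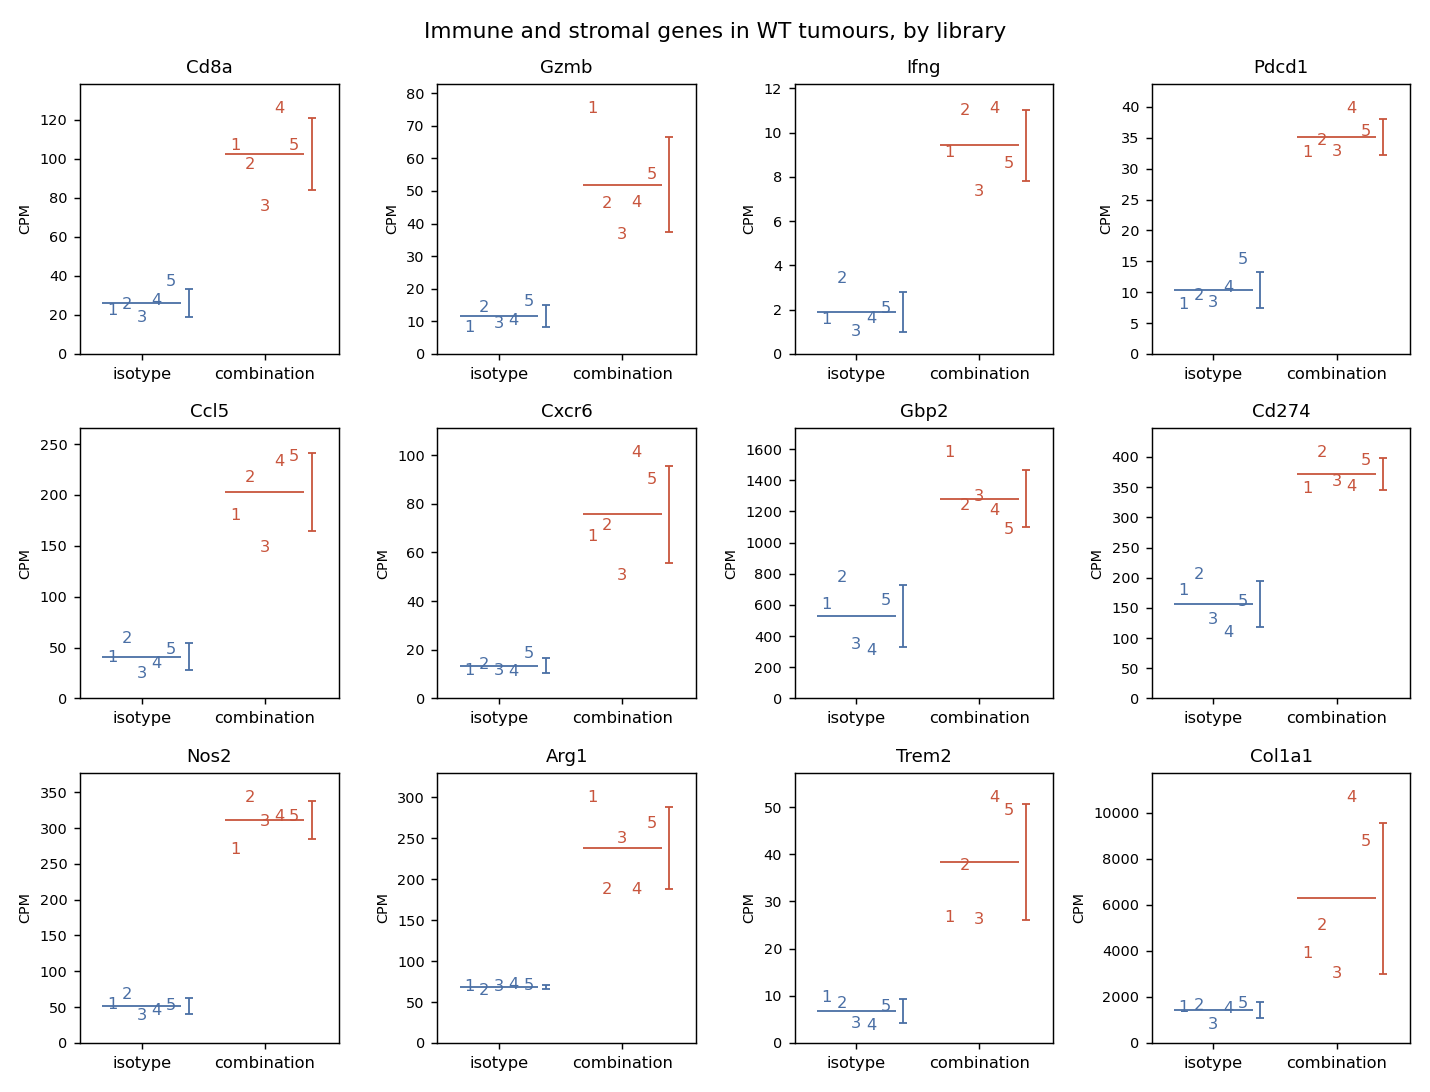
CPM of 12 immune and stromal genes in each WT library; digits are replicate numbers, horizontal lines are arm means and bars at the right are the SD (n = 5). Every combination library lies above every isotype library in all 12 panels, and Col1a1 has the widest spread among combination libraries.

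Chemokines that attract T cells and monocytes rose in 9 of 13 cases (median 1.07), and 1 fell. Ccl5, made by activated T cells, was at 40.1, 58.7, 24.7, 34.4 and 47.7 CPM in isotype and at 180, 217, 148, 233 and 238 CPM in combination libraries (log2 2.33, SE 0.35, adjusted p = 9.29e-05). Ccl8, a monocyte chemokine, rose by 2.4 and Ccl4 by 1.96. The ligands of CXCR3 that interferon gamma induces rose less, Cxcl9 by 1.17 from 135 to 331 CPM up to 391 to 627 CPM and Cxcl10 by 0.92. Ccl17, a ligand of CCR4, was the member that fell, by 0.89 on the log2 scale, from 3.19 to 4.08 CPM down to 1.42 to 2.73 CPM. Among receptors 5 of 8 rose and none fell. Cxcr6, carried by tissue-resident killer T cells, went from 11.2 to 18.6 CPM up to 50.4 to 101 CPM (log2 2.52, SE 0.26, adjusted p = 1.33e-05), and Cxcr3 rose by 2.27.

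Neutrophil chemokines did not move as a group: 1 of 7 rose and 2 fell. Cxcl15 fell by 1.98 on the log2 scale without overlap, and the platelet chemokine Pf4 rose by 1.89. Cxcl1 was high only in isotype replicates 3 to 5 (10.6, 19.8 and 16.2 CPM) against 1.99 and 0.998 CPM in replicates 1 and 2 and 0.755 to 4.17 CPM in the combination (log2 -2.41, adjusted p = 0.029). Its call was lost without any of 7 single libraries (isotype 3, 4 or 5, combination 1, 2, 3 or 4). Of 20 cytokines 11 rose and none fell (median 1.01). Ifng, interferon gamma, was at 1.55, 3.39, 1, 1.6 and 2.04 CPM in isotype and at 9.11, 11, 7.36, 11.1 and 8.6 CPM in combination libraries (log2 2.33, SE 0.32, adjusted p = 5.85e-05). Il21, a helper T-cell cytokine, rose by 2.45, Tnf by 1.87 and Il18bp, the decoy of interleukin 18 that interferon gamma induces, by 1.61. Il10 was at 1.06 to 1.95 and 1.52 to 3.19 CPM (log2 0.76, adjusted p = 0.0676). Il11, a cytokine of the interleukin 6 family and no member of that list, was among the 10 largest falls: 20.8, 19, 5.7, 7.85 and 9.27 CPM in isotype against 1.01, 1.21, 2.58, 0.89 and 0.521 CPM in combination libraries (log2 -3.3, SE 0.49, adjusted p = 9.08e-05).

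The interferon signalling chain rose in 16 of 18 members (median 0.77). The feedback inhibitor Socs1 was at 22.5, 24.5, 15.9, 15.9 and 23.4 CPM in isotype and at 38.5, 54.2, 48.7, 53.9 and 40.2 CPM in combination libraries (log2 1.23, SE 0.21, adjusted p = 0.000271). The transcription factor gene Irf1 rose by 0.86, Ciita, the master regulator of class II genes, by 1.1 and Nlrc5, that of class I genes, by 0.77. Jak2, a kinase of the interferon gamma receptor, was the 1 member that fell, from 324 to 392 CPM down to 189 to 266 CPM (log2 -0.59, SE 0.1, adjusted p = 0.000285).

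Guanylate-binding proteins and immunity-related GTPases, which attack the vacuoles of intracellular microbes, rose in 18 of 19 cases (median 1.02). Gbp2 was at 601, 776, 344, 307 and 627 CPM in isotype and at 1576, 1241, 1293, 1206 and 1084 CPM in combination libraries (log2 1.29, SE 0.33, adjusted p = 0.00339). Gbp5 rose by 1.34 and Tgtp2 by 0.96. The 4 genes whose promoter stretches with an interferon-stimulated response element are printed above were all called higher. Type I interferon-stimulated genes rose in 17 of 24 cases and none fell (median 0.69), with Ifit2 at 1.22.

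Antigen presentation rose at most steps. Of 11 class I heavy chain and peptide-loading genes 8 rose, 1 fell and 2 were not called (median 0.64). H2-K1 rose from 273 ± 74.7 to 906 ± 228 CPM (SD, n = 5 each; log2 1.76, adjusted p = 0.000169), H2-D1 by 0.73 and B2m, their shared light chain, by 0.59. The peptide pump genes Tap1 and Tap2 rose by 0.64 and 1.02, while the chaperone Canx fell by 0.41 on the log2 scale. All 6 immunoproteasome and activator genes rose (median 0.7), Psmb9 by 0.71. Of the 14 constitutive subunits that these replace or join, none was called higher and 3 were lower (median -0.16), with Psmb5 at 14.1 to 17.9 and 15 to 18.8 CPM (log2 0.13, adjusted p = 0.296) and Psmb7 at -0.38.

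Of 13 non-classical class I genes 10 rose (median 0.87), including H2-T23, the mouse Qa-1 that binds the inhibitory receptor encoded by Klrc1 (0.87), and H2-Q6 (1.6); H2-Q1 fell by 0.84 on the log2 scale, a call lost without isotype replicate 1 or 2 or combination replicate 4 or 5. These genes are close copies of each other, so their reads can be shared between members. Of 3 NKG2D ligands, H60b fell by 1.11, and Ulbp1 rose by 0.21, a call lost without isotype replicate 1 or 4 or combination replicate 1 or 2. Class II presentation genes, displayed by macrophages, dendritic cells and B cells, rose in 10 of 12 cases (median 1.29): H2-Aa by 1.49, H2-Ab1 by 1.51, H2-Oa by 1.6 and the protease Ctss by 2.04. Cd274, which encodes PD-L1, was at 178, 206, 131, 109 and 160 CPM in isotype and at 347, 407, 359, 351 and 394 CPM in combination libraries (log2 1.27, SE 0.22, adjusted p = 0.000258).

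Each list of macrophage genes had more members called higher than the 25.0% of all genes. Inflammatory and immunoregulatory effectors were called higher in 13 of 16 cases (median 1.52). Nos2, the nitric oxide synthase of macrophages activated by interferon gamma (chr11:78920787-78960254), was at 53.3, 68, 38.5, 45.8 and 52.1 CPM in isotype and at 270, 343, 309, 316 and 316 CPM in combination libraries (log2 2.62, SE 0.27, adjusted p = 1.33e-05). Arg1, the arginase that uses the same substrate, rose too, from 68.4 ± 2.68 to 238 ± 50.2 CPM (SD, n = 5 each; log2 1.82, adjusted p = 9.29e-05). Slamf7 rose by 2.52. Acod1, the enzyme that makes itaconate, was called at 2.26 (adjusted p = 0.033), but the call was lost without any of isotype replicates 1, 2, 3 or 5 or combination replicate 5, which alone held 151 CPM against 41.5 to 69.2 CPM in the other 4.

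Lipid-associated macrophage genes rose in 11 of 18 cases (median 1.21). Trem2, the lipid-sensing receptor of these cells, went from 3.72 to 9.55 CPM up to 26.2 to 52.1 CPM (log2 2.53, SE 0.32, adjusted p = 3.82e-05). Abcg1 rose by 1.87 and Cd36 by 1.82. Atp6v0d2, a proton pump subunit of macrophages and osteoclasts, rose by 2.15 (SE 0.16, adjusted p = 3.53e-07). Gpnmb, another marker of the state, was at 322, 284, 132, 127 and 178 CPM in isotype and at 271, 258, 277, 282 and 212 CPM in combination libraries (log2 0.34, adjusted p = 0.213); isotype replicates 1 and 2 were at or above the combination, and without both the gene was called at 0.85.

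General macrophage genes rose in 13 of 16 cases (median 1.26), with Lyz2 at 2.17. Lyz1 and Ly6i were among the 10 largest rises, at 3.1 and 3.47. C1qa, a complement subunit made by tissue macrophages, rose by 0.97. Of 8 tested Kupffer and resident macrophage genes 4 rose (median 1.03), but the genes that define Kupffer cells were near 0: Clec4f had 3 counts over all 10 libraries, and Vsig4 and Timd4 had 25 and 63. Cd5l rose by 2.99 from 0.118 to 1.46 CPM, led by combination replicate 4 at 21.4 CPM. Proton pump and lysosomal protease genes rose in 15 of 20 cases (median 0.68), with Ctsb at 1.58, Ctsd at 1.26 and Ctsk at 1.95. Antibody Fc receptors, which bind antibody such as the ones given, rose in 4 of 7 cases, with the inhibitory Fcgr2b at 1.35 and Fcgr4 at 0.76. Of 15 complement genes 11 rose (median 0.87), with Cfp, properdin, at 1.6; Cfi, the factor that cleaves C3b, fell by 2.41 on the log2 scale.

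Matrix genes rose with a wide spread. Of 24 collagen and fibrillar matrix genes 14 rose, 1 fell and 9 were not called (median 1.07). Col1a1 was at 1520, 1620, 812, 1511 and 1711 CPM in isotype and at 3881, 5092, 3013, 10676 and 8733 CPM in combination libraries (log2 2.16, SE 0.51, adjusted p = 0.00211). Combination replicates 4 and 5 were well above the other 3, as they were for the Y-linked sum. Col3a1 rose by 2.19 and Lum by 2.84, and Col6a5 and Col6a6, at 3.98 and 4.15, were among the 10 largest rises, led by combination replicate 4 (148 and 84.4 CPM). The largest rise among genes with a mean of at least 5 CPM, Tchh at 4.74, came from combination replicate 2 alone, at 97.8 CPM against 0.787 to 2.41 CPM in the other 4, and limma voom did not call it.

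Fn1, fibronectin, went against the collagens: it fell from 6836 to 8272 CPM down to 2726 to 4237 CPM (log2 -1.09, SE 0.13, adjusted p = 2.04e-05). Its isotype mean was 7440.5 CPM, against 1434.9 CPM for Col1a1. Whether the same cells carry both RNAs was not tested. Only 4 of 12 fibroblast identity genes rose (median 0.77), near the background share. Among metalloproteinases and inhibitors 5 of 15 rose, also near the background share, and 1 fell. The macrophage elastase Mmp12 rose by 1.48, and Adamts4 fell by 1.03 on the log2 scale. Mmp2 rose by 2.09, a call lost without isotype replicates 1 and 2 (1.89). The TGF-beta list was at the background, with 3 of 16 higher and 2 lower; Tgfb1 itself was at 119 to 151 and 126 to 147 CPM (log2 0.05, adjusted p = 0.606), and Tgfbi rose by 1.25. Endothelial genes rose in 7 of 15 cases (median 0.63), Pecam1 by 0.71 and Vwf by 1.06.

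**Figure D3:**
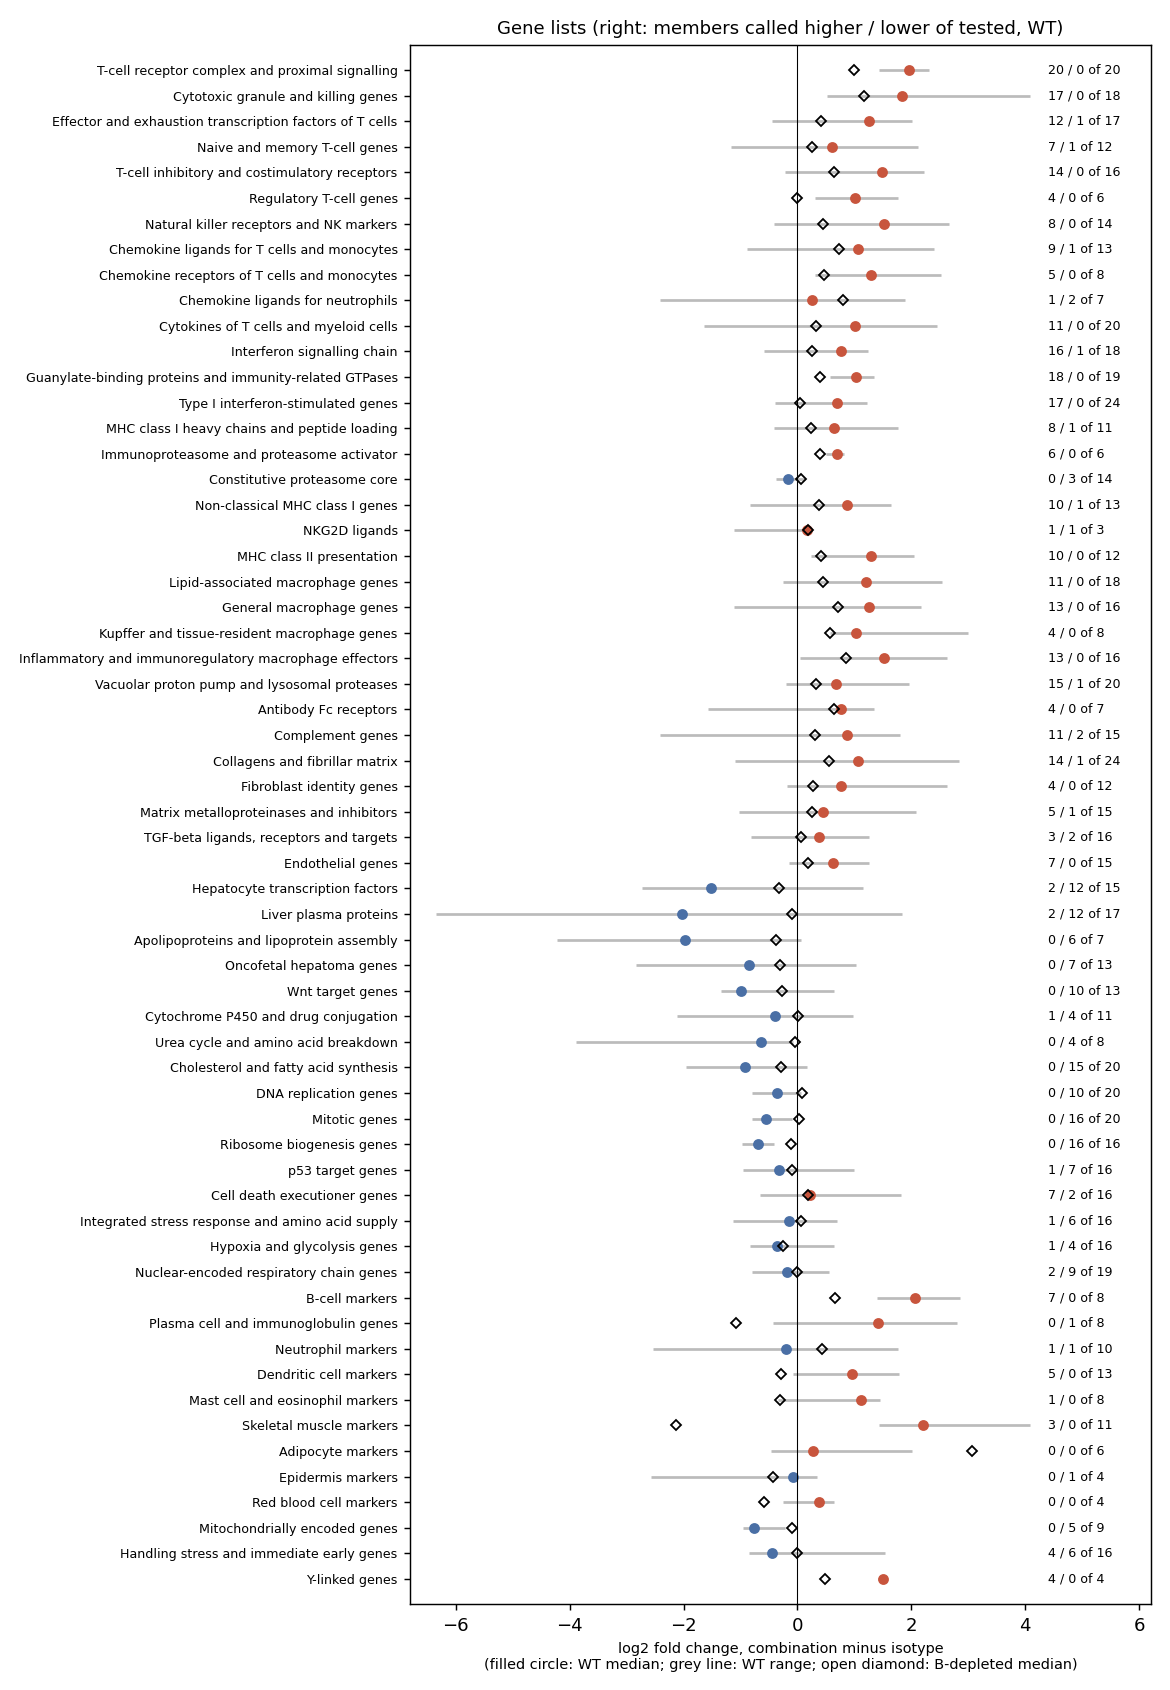
For each of the 60 gene lists, the median log2 fold change of combination against isotype in WT tumours (filled circle), the range of its members (grey line) and the median in B-depleted tumours (open diamond), with the number called higher and lower of those tested at the right. T-cell, interferon and macrophage medians lie to the right of 0 and hepatocyte, Wnt, sterol and ribosome medians to the left in WT tumours.

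Genes of the hepatocyte programme fell. Of 15 hepatocyte transcription factors 12 were lower, 2 higher and 1 not called (median -1.52), against 25.0% of all genes lower. Hnf4a, which maintains hepatocyte identity (chr2:163506808-163572910), was at 76.1, 91.9, 184, 129 and 134 CPM in isotype and at 48.5, 27, 58.7, 15.5 and 13.5 CPM in combination libraries (log2 -1.9, SE 0.36, adjusted p = 0.000433). Prox1 fell by 2.19, with isotype replicates 1 and 2 at 52.9 and 62 CPM and 3 to 5 at 187, 232 and 149 CPM. The summed level of the list split the isotype arm too. It was 440 and 487 CPM in replicates 1 and 2 and 880, 871 and 710 CPM in 3 to 5, against 253 to 418 CPM in the combination. Cebpa, which myeloid cells also express, rose by 1.15.

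Plasma protein genes, the targets of those factors, were lower in 12 of 17 cases (median -2.02), and their levels split the isotype arm. Alb, albumin, was at 447 and 490 CPM in isotype replicates 1 and 2 and at 2024, 1759 and 1284 CPM in replicates 3 to 5, against 447, 237, 717, 119 and 76.4 CPM in the combination (log2 -1.9, SE 0.56, adjusted p = 0.00924). Ambp was at 1.71 and 1.06 CPM in isotype replicates 1 and 2, at 82.7, 55 and 38.3 CPM in 3 to 5, and at 0.261 to 3.65 CPM in the combination (log2 -4.9). Ttr, F2 and Fgb had the same split, with isotype replicates 1 and 2 at 1.6 and 4.39, 0.442 and 0.998, and 8.45 and 10.1 CPM, and replicates 3 to 5 at 12.1 CPM or more. The falls of these genes rest on isotype replicates 3 to 5, and limma voom did not call Ambp and F2, nor Elovl2 below. Without replicates 1 and 2 the list again had 12 members lower and 2 higher. F10 and F7, clotting factors that macrophages also make, were the 2 members that rose, by 1.84 and 1.29, with no overlap between arms.

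Apob, the protein of low-density lipoprotein, fell without overlap between arms: 484, 493, 593, 610 and 553 CPM in isotype against 165, 146, 217, 57.6 and 29.5 CPM in the combination (log2 -2.13, SE 0.36, adjusted p = 0.000198). Apoa1 fell by 4.23, and in all 6 of 7 apolipoprotein and lipoprotein genes were lower (median -1.98). Of 13 tested oncofetal hepatoma genes 7 fell and none rose (median -0.85). Afp, alpha-fetoprotein, was at 138, 171, 1460, 974 and 760 CPM in isotype and at 115, 57.2, 252, 41.2 and 24.3 CPM in combination libraries (log2 -2.83, SE 0.65, adjusted p = 0.00188), with the split of the isotype arm seen for albumin. Sox9 fell by 1.15 without overlap. Gpc3 was at 8.45 to 40 and 10 to 53.3 CPM (log2 0.15, adjusted p = 0.8), and Igf2 had too few counts to test.

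Wnt target genes fell in 10 of 13 cases and none rose (median -1). Sp5, an early transcriptional target, did not split the isotype arm as albumin did. It was at 170, 178, 177, 181 and 164 CPM in isotype and at 95.6, 69, 134, 29.9 and 33.4 CPM in combination libraries (log2 -1.24, SE 0.29, adjusted p = 0.00222). Nkd1, a feedback inhibitor, fell by 1.18 and Glul, glutamine synthetase, by 1.21, both without overlap. Lgr5 fell by 1.35 with overlapping arms. Axin2 overlapped as well and was called at -0.66 (adjusted p = 0.0296); this call was lost without any of isotype replicates 1 or 2 or combination replicates 4 or 5, and without isotype 1 and 2 together (-0.44).

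**Figure D4:**
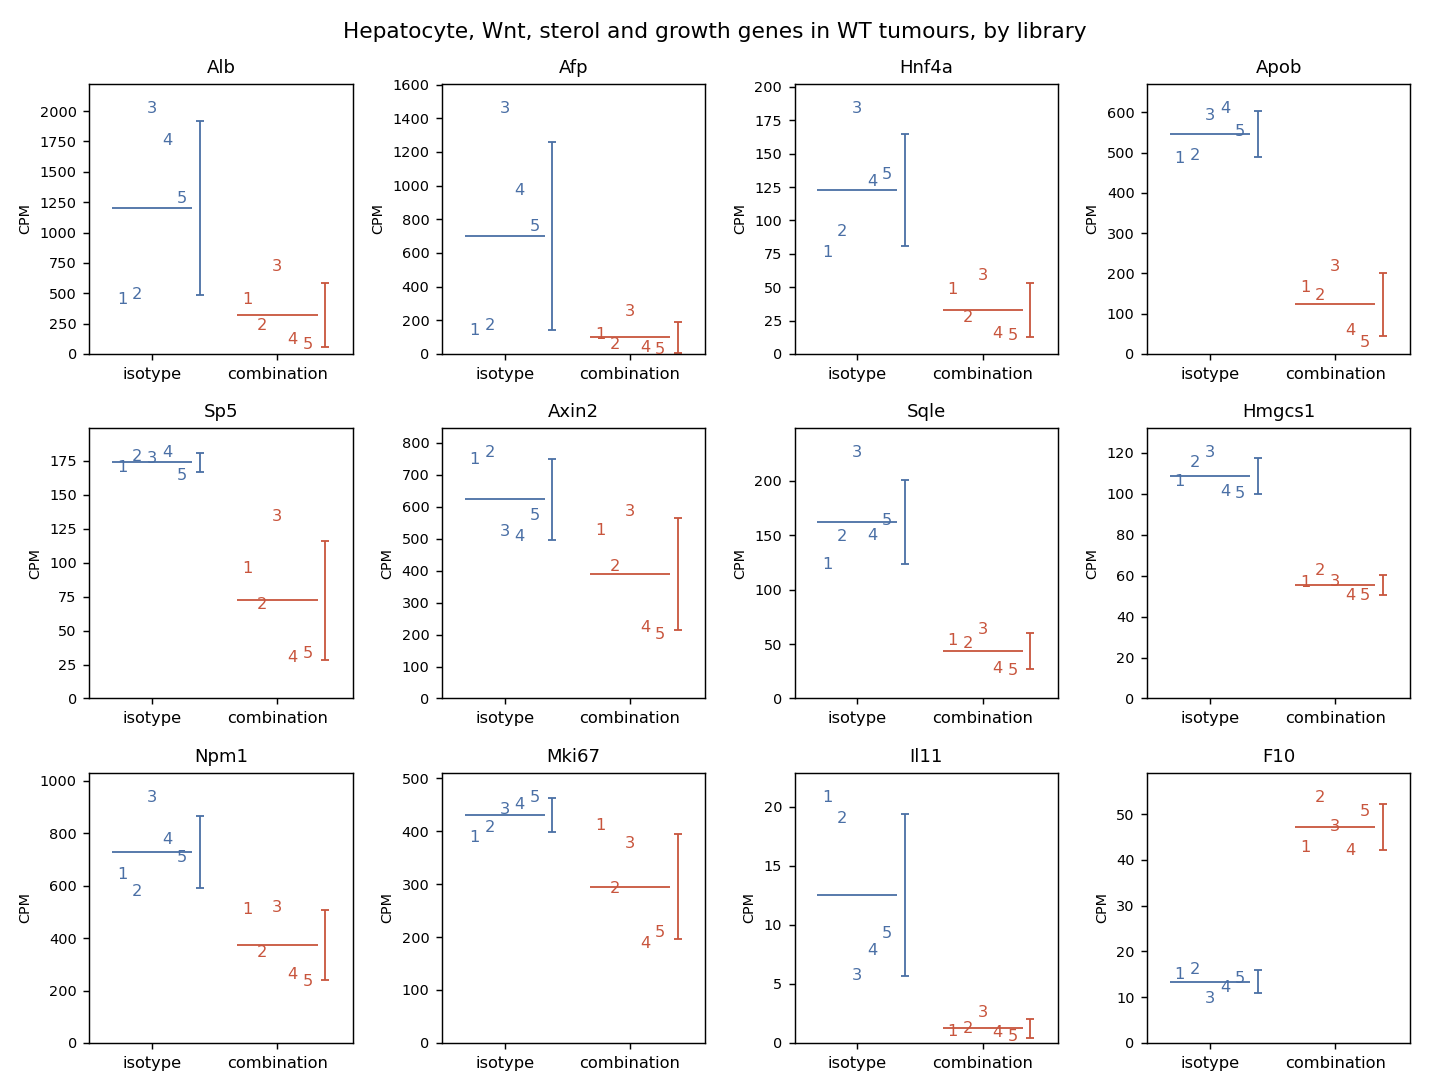
CPM of 12 genes of hepatocyte identity, Wnt signalling, sterol synthesis and growth, with Il11 and F10, in each WT library; digits are replicate numbers, lines are arm means and bars are the SD (n = 5). Alb and Afp split isotype replicates 1 and 2 from 3 to 5, whereas Sp5 and Hmgcs1 do not.

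Cholesterol and fatty acid synthesis genes were lower in 15 of 20 cases and higher in none (median -0.93), and in 16 of the 20 all combination libraries were below all isotype libraries. Hmgcs1, which makes the precursor of mevalonate, was at 106, 115, 120, 101 and 100 CPM in isotype and at 56.7, 62.4, 56.9, 50.5 and 50.4 CPM in combination libraries (log2 -0.95, SE 0.09, adjusted p = 5.16e-06). Sqle fell by 1.87 and Fads2, a fatty acid desaturase, by 1.45. Cytochrome P450 and conjugation genes fell in 4 of 11 cases, against 25.0% of all genes, and rose in 1. Cyp1a1 was at -2.12, a call lost without isotype replicate 3 or 4 or combination replicate 2, 4 or 5. Of 8 urea cycle and amino acid genes 4 fell and none rose. Elovl2, which elongates polyunsaturated fatty acids, was the largest fall among genes with a mean of at least 5 CPM, at -4.91, from 0.552 and 0.865 CPM in isotype replicates 1 and 2 and 14.6 to 18 CPM in 3 to 5.

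Growth genes fell by smaller amounts. All 16 ribosome biogenesis genes were lower (median -0.7), Npm1 from 579 to 937 CPM down to 235 to 515 CPM (log2 -0.95, adjusted p = 0.00103) and Mybbp1a by 0.97. Mitotic genes were lower in 16 of 20 cases (median -0.56) and DNA replication genes in 10 of 20 (median -0.36), and none rose. Cdk1, Ccnb1 and Aurka, the kinases and cyclin of mitosis, fell by 0.8, 0.79 and 0.77 on the log2 scale, and Bub1, a spindle checkpoint kinase, by 0.71. Mki67 was at 387, 406, 441, 450 and 464 CPM in isotype and at 411, 292, 376, 188 and 209 CPM in combination libraries (log2 -0.52, SE 0.17, adjusted p = 0.0151); combination replicate 1 lay inside the isotype range, and the call was lost without combination replicate 5 (-0.41). Mcm2, of the replicative helicase, fell by 0.71, also with overlap.

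Of 16 p53 targets 7 fell and 1 rose: Perp fell by 0.96 on the log2 scale, Sesn1 rose by 1, and Cdkn1a, the p21 inhibitor, was at 86.7 to 192 and 98.7 to 136 CPM (log2 -0.15, adjusted p = 0.572). Cell death executioners rose in 7 of 16 cases and fell in 2. Ripk3, the kinase of necroptosis, rose by 1.21 and Pycard, an inflammasome adaptor, by 1.49; Gsdmd was at 80.3 to 103 and 93 to 115 CPM (log2 0.18, adjusted p = 0.0831), and Gsdme fell by 0.66 on the log2 scale. Integrated stress response genes fell in 6 of 16 cases, against 25.0% of all genes, and rose in 1, with Asns at -1.02. Of the hypoxia and glycolysis list 4 of 16 genes were lower, the background share of 25.0%, and 1 was higher (Hk2 at -0.84, Pfkp at 0.64). Nuclear respiratory chain genes fell in 9 of 19 and rose in 2 (Ndufa4 at -0.79, Sdhb at 0.55).

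Markers of other cell types were counted beside these results. B-cell markers rose in 7 of 8 cases (median 2.07) at low levels: Cd79a was at 0.133 to 0.607 CPM in isotype and 0.844 to 2.8 CPM in combination libraries (log2 2.21), and Ms4a1 rose by 2.8. The summed B-cell level was 15.3 to 74 and 56.3 to 174 CPM. Of 8 plasma cell and immunoglobulin genes none was called higher and 1 fell (Xbp1, -0.43), but their median was 1.41, and 5 of the 8 were called higher without isotype replicates 1 and 2. Dendritic cell markers rose in 5 of 13 cases, against 25.0% of all genes, with Clec9a at 1.68. Mast cell and eosinophil markers rose in 1 of 8. Of 10 neutrophil markers Csf3r rose (1.77), Ly6g fell (-2.54) and 8 were not called. Muscle markers were called higher in 3 of 11 cases, near the background share of 25.0%, but their median was 2.2 (range 1.44 to 4.08). Their summed levels were 2.06 to 115 and 35.7 to 267 CPM, and their median change in B-depleted tumours was -2.14. Adipocyte and red blood cell markers rose in none of 6 and 4. Epidermis markers fell in 1 of 4 (Krt5, -2.58), the background share. Among measures of RNA quality, mitochondrially encoded genes fell in 5 of 9 cases (mt-Nd1 by 0.81), and of 16 handling and immediate early genes 4 rose and 6 fell, Egr2 at 1.33, Egr1 at -0.82 and Dnajb1 at -0.85. The part of these shifts in the results above was not tested.

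The same contrast in B-depleted tumours gave medians nearer to 0 for the lists named next, whose difference was not tested as lists. The median log2 change was 1.96 in WT and 0.99 in B-depleted tumours for T-cell receptor genes, 1.84 and 1.16 for killing genes, 1.02 and 0.4 for guanylate-binding proteins, 1.52 and 0.86 for macrophage effectors, -1.52 and -0.32 for hepatocyte factors, -1 and -0.27 for Wnt targets, and -0.93 and -0.29 for cholesterol genes. The median of the 4 Y-linked genes was 1.51 in WT and 0.49 in B-depleted tumours. A weaker response and a smaller shift in the mix of host and tumour cells therefore cannot be told apart here. The difference between the responses, tested gene by gene in edgeR, was called for 5 of 19061 genes (0.0262%), while 4881 had an unadjusted p under 0.05. DESeq2 called 1154. Hopx, a transcription cofactor of effector T cells and other cells, rose by 1.42 in WT and changed by 0.06 in B-depleted tumours (difference 1.36, adjusted p = 0.0241), and Atp6v0d2 by 2.15 and 0.9 (difference 1.25, adjusted p = 0.0484). Both calls were lost without isotype replicate 2, 4 or 5, and that of Atp6v0d2 also without isotype replicate 3 or combination replicate 4 or 5, with differences of 1.29 to 1.43 for Hopx and 1.13 to 1.33 for Atp6v0d2 over all 10 omissions of 1 library. The number of such genes depended on single libraries: it was 1540 without WT combination replicate 3, 361 without combination replicate 1, 6 without isotype replicate 1, and 0 to 2 without any other WT library. Without WT isotype replicates 1 and 2 together it was 2007. For Cd8a the responses were 1.99 and 1.46 (difference 0.53, adjusted p = 0.327), and for Nos2 they were 2.62 and 0.78 (difference 1.84, adjusted p = 0.0687).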

How the data were processed

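The authors deposited raw read counts per gene for 21 libraries, a table of 55487 Ensembl identifiers; the unequal whole-number totals show the unit. Reads had been handled with STAR 2.7.2a, cutadapt 2.4 and the build GRCm38, as the submitters' processing notes list; the counting program is not given in the sources used here. Symbols and gene coordinates came from GENCODE M21, which left 260 identifiers (0.0183% of counts) without a symbol. Groups came from the sample titles. In R 4.3.3, edgeR 4.0.16 (filterByExpr, TMM, robust quasi-likelihood, 4 groups, no covariates) was fitted on all 21 libraries, so that the arms share 1 estimate of the spread; the SE is the log2 fold change divided by the root of F. Alternatives were other scalings, no filter, DESeq2 1.42.0, limma 3.58.1 voom, other sets of libraries, thinning, blocks and a Y-linked covariate. Data were also simulated for the same contrast, with 200 genes changed and 18803 tested. In them 55.2% of 2-fold and 82.8% of 4-fold changes were recovered, and 2.88% of calls were false. The real contrast called 9529 genes, and the simulation held no shift of cell mix and no split isotype arm. Its rates therefore do not give the recovery or the false share of the calls reported above.

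Named genes are 44 key genes, the 10 largest rises and falls among genes averaging 5 CPM or more (predicted, Riken, pseudogene and receptor segment entries excepted), up to 4 called members of each of 60 lists plus 1 of opposite sign, and the 5 most like Gzmb. Xist, Hopx, Ctla4, Foxp3, Ncr1, Klrb1c, Cxcl10, B2m, F7, Fgb and the promoter genes were named outside that rule, with values seen. Some genes are not reported here. Members, lists and comparison were chosen with earlier results of these data known. At 15.03 M counts, 1 CPM is about 15 counts.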

Additional observations from a re-analysis of the deposited data

Results flagged for a closer look

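Each arm of the 44 key genes was searched for a library far from the other 4 (Dixon's test at the 95% level), which chance finds in about 1 of 20 groups; 3 of 88 were found. C1qa was lowest in isotype replicate 3, at 111 CPM against 171 to 194 CPM in the other isotype libraries. Col1a1 was lowest in the same library, at 812 CPM against 1511 to 1711 CPM. Clec4f was highest in combination replicate 2, at 0.19 CPM, which is 3 counts, with no count in the other 4.

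The response differed between WT and B-depleted tumours by the interaction test of edgeR for Hopx (difference of log2 changes 1.36) and Atp6v0d2 (1.25), among the genes named. The call held in 7 of 10 omissions of 1 WT library for Hopx and in 4 of 10 for Atp6v0d2. It was lost for both with the replicate block by title number (adjusted p = 0.0511 and 0.0658) and with the Y-linked covariate (0.176 and 0.227), and for Atp6v0d2 also with RLE scaling (0.053) and limma voom (0.0578).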

How the results depend on the processing

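The number of genes called in WT tumours stayed within 1.5 times of 9529 under every alternative but the Y-linked covariate (77: 20 higher, 57 lower). It ran from 7691 to 10240 with 1 library left out, with 4766 called higher and 4763 lower in all libraries. Of 173 named genes tested, at most 8 changed their side of the threshold under any alternative other than that covariate. None of the 163 called among them changed direction under those alternatives. Direction was not compared for the named genes that were not called. With that covariate 155 of 163 calls were lost, and 28 of these genes turned: Slamf6 -0.04, Klrb1c -0.5, H2-Oa -0.2, C1qa -0.25, Ctsk -0.72, Col1a1 -0.47, Lum -1.29, Mmp2 -1.12, Pecam1 -0.46, Alb 0.35, Axin2 0.1, Nkd1 0.02, Lgr5 0.15, Mcm2 0.16, Mki67 0.17, Xist 0.07, Cd79a -0.61, Bub1 0.03, Cd4 -0.17, Cxcr5 -0.19, Col3a1 -1.04, Tgfbi -0.26, Sesn1 -0.19, Hk2 0.04, Ms4a1 -1.5, Fcgr4 -0.12, Cyp1a1 0.91 and Psmb7 0.05. List medians turned as well: naive and memory T cells -0.14, regulatory T cells -0.09, neutrophil chemokines -0.76, cytokines -0.19, constitutive proteasome 0.07, NKG2D ligands -0.52, general macrophages -0.02, Kupffer -0.38, Fc receptors -0.12, collagens -0.72, fibroblasts -1.14, metalloproteinases -0.49, TGF-beta -0.35, endothelium -0.81, cytochrome P450 0.01, replication 0.17, mitosis 0.08, stress response 0.15, hypoxia 0.23, respiratory chain 0.12, B cells -0.65, plasma cells -3.33, dendritic cells -0.79, mast cells -0.93 and adipocytes -0.21. Without isotype replicates 1 and 2 the medians of neutrophil chemokines (-0.05), red blood cells (-0.22) and handling stress (0.58) turned. With 1 library left out, these medians also turned: handling stress ran from -0.54 to 0.53 (isotype replicate 1), neutrophil markers from -1.6 to 0.07 (isotype replicate 4, and 0.03 for combination replicate 4), and neutrophil chemokines from -0.6 to 0.43 and NKG2D ligands from -0.07 to 0.23 (combination replicate 5 for both).

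The difference between WT and B-depleted responses was called for 5 genes, and for 1154 by DESeq2, 2007 without isotype replicates 1 and 2, 3 after thinning and 0 with the Y-linked covariate, and for 0 to 1540 with 1 library left out; the cause was not tested. Libraries with the same number did not deviate together: their correlations were -0.35, 0.16, 0.37, -0.12 and -0.09 by title number, and 1 of 5 correlated best with its own number. A replicate block by title number gave 9583 calls in WT and 0 for the difference, and turned the neutrophil chemokine median (-0.19). A replicate block by description code gave 8249 and turned the same median (-0.72). At these depths genes under 1 CPM rest on about 15 counts or fewer per library.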

Other observations

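The called genes were not spread evenly over the chromosomes. On chromosome 14, 37.6% of 679 tested genes were called higher and 16.2% lower, on chromosome 9 the shares were 33.6% and 14.0% of 1055, and on chromosome 12 they were 33.4% and 13.4% of 680. On chromosome 15 only 18.3% of 743 were higher and 39.7% lower, and on chromosome 19 20.2% and 35.3% of 604. The median log2 change over the tested genes was 0.19, 0.16 and 0.2 on chromosomes 14, 9 and 12, and -0.26 and -0.2 on chromosomes 15 and 19. These chromosomes were picked after the values of all 21 chromosomes were seen, and the shares were not tested.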
